A study of Mus musculus with 1 sample.

Results

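Endothelial cells of the pancreas of 2-week-old Scap f/f mice were described in 1 single-cell RNA library. The cells were selected on their own counts: a barcode was taken where it held more than 800 and fewer than 100000 UMIs (unique molecular identifiers, each standing for 1 captured RNA molecule), under 15% mitochondrial UMIs, and at least 5 UMIs summed over *Cdh5*, *Pecam1*, *Flt1*, *Egfl7* and *Ptprb*. Barcodes with any UMI of the leukocyte gene *Ptprc*, with more than 1 UMI of *Acta2* and *Myh11* together, with 0.5% or more of their UMIs from *Col1a1* and *Col3a1*, or with 5% or more from the digestive enzyme genes *Ctrb1*, *Pnliprp1*, *Clps* and *Reg1* were left out. This gave 216 endothelial cells, 1.97% of the 10947 barcodes within the depth and mitochondrial limits (exact 95% binomial interval 1.72 to 2.25%) and part of 11789 barcodes in all. The number was 467 (4.27%) without the 4 purity criteria and 130 (1.19%) without the cells bearing mural RNA described below. The 216 cells held 1181505 UMIs, with a median of 3594 UMIs per cell (834 to 49438) and 1970 genes per cell. The mice carried floxed *Scap* alleles and no Cre, and served as the control for a pancreas-specific *Scap* deletion whose library is not analysed here. Pancreata of 5 to 6 mice, males and females in equal number, were pooled before digestion, so that the library is 1 sample: no test between conditions or animals was possible, and every interval given covers counting error only.

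Endothelial cells line blood and lymphatic vessels. They keep the vessel wall closed through adherens junctions built on VE-cadherin, respond to VEGF through receptor tyrosine kinases, recruit pericytes by secreting PDGF-B, and in the capillaries of metabolically active tissue take up fatty acids released from circulating lipoproteins. In the pancreas the capillaries are fenestrated, most densely in the islets, and vessels branch into arterial, capillary and venous segments that use different genes. SCAP escorts the SREBP transcription factors to the Golgi when sterols are low, where they are cut and released to switch on genes of cholesterol and fatty acid synthesis.

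A few of the genes that set these cells apart are shown with the DNA in front of their start sites, because the cells also held RNA of several ETS transcription factors, which bind DNA around a core of GGAA. The sequences are RefSeq promoter windows of build GRCm38.p6 on the strand of the gene, 5′ to 3′, trimmed to bases that lie in no annotated exon of the gene. Capitals mark the letters AGGAAG or CAGGAA on either strand (CTTCCT or TTCCTG when read on the strand shown), which overlap where they share a core. *Emcn* (endomucin, chr3:137340828-137341066, forward strand), *Flt1* (VEGF receptor 1, chr5:147726012-147726261, reverse strand) and *Tek* (the angiopoietin receptor Tie2, chr4:94739039-94739288, forward strand) read as follows.
Emcn: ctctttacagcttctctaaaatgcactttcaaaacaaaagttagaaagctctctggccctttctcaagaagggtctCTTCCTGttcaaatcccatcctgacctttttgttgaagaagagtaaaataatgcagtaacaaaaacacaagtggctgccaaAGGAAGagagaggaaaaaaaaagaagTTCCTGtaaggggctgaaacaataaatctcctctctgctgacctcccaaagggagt
Flt1: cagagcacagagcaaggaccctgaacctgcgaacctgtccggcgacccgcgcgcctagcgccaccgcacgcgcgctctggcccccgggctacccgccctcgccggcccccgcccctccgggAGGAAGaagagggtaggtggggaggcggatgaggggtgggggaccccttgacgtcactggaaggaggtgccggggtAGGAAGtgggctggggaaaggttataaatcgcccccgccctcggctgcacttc
Tek: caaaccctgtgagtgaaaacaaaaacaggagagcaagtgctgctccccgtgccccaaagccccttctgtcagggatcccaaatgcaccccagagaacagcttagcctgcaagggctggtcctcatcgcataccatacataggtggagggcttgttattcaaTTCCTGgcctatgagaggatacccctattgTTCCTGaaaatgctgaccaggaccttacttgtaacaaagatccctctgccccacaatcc
Of 26 endothelial marker genes looked up, 14 had an entry, with 17 promoter windows of 300 bases, each reaching from 250 bases before the start to 50 after it. CAGGAA or its reverse complement was present in 12 of the 17 windows (70.6%) and in 30.6% of all 32851 windows in the table. AGGAAG was present in 64.7% and 35.4%, the shorter GGAA in 94.1% and 96%, and CCGGAA, a form with another flank, in 11.8% and 14.9%. The forkhead string TGTTTAC was present in 1 of the 17 windows and in 3.65% of all. These are matches of letters among 8 strings searched, and no binding was measured.

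The 5 genes of the rule were read together in most of the cells. All 5 were present in 158 of the 216 cells and at least 4 in 193, and the summed UMIs of the 5 genes ranged from 5 to 188 with a median of 22. *Cdh5*, which encodes VE-cadherin (ENSMUSG00000031871, GRCm38 chromosome 8, 104101625 to 104144511, forward strand), stood at 1264 counts per 1000000 UMIs (CPM; 95% Poisson interval 1200 to 1329) and had a UMI in 204 cells. These levels chose the cells and are given as a description. At the edge of the rule, 8 cells held exactly 5 marker UMIs and 8 held 6, while 3 otherwise eligible barcodes held 4 and 11 held 3. *Emcn*, a sialomucin of capillary and venous endothelium that the rule did not use, stood at 79.4 CPM in the cells with 5 marker UMIs, 656 with 6, 546 with 4 and 10.9 with 3, and no *Emcn* UMI was present in the 21 barcodes with 2. It was detected in 12.5% of the cells with 5, 50% with 6, 33.3% of the barcodes with 4 and 18.2% with 3. These levels rest on few barcodes, and by detection the barcodes with 3 did not fall below the cells with 5.

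Markers outside the rule were high in the same cells. The fibroblast, mesothelial, immune, exocrine and mural classes here and below held only barcodes with fewer than 5 UMIs of the 5 genes of the rule. Low marker levels in these classes, and ratios to them, were therefore in part set by the choice. *Emcn* stood at 923 CPM in the endothelial cells (869 to 979) against 2.62 in 5362 fibroblasts, 2.62 in 522 mesothelial cells, 4.09 in 1361 immune cells and 5.06 in 905 exocrine cells. After each cell was thinned to 800 UMIs, 47.7% of endothelial cells (40.9 to 54.6%) and 0.130% of fibroblasts (0.0525 to 0.269%) had an *Emcn* UMI, against 82.4% and 0.876% at full depth, where the median depths were 3594 and 2728 UMIs. *Tie1*, a receptor that modulates Tie2, stood at 211 CPM against 0.437 in fibroblasts. *Robo4*, a vascular guidance receptor, stood at 141 CPM against 0.273. *Plvap*, which forms the diaphragms of fenestrae and caveolae, stood at 1105 CPM (1045 to 1166) against 14.9. Several classical markers were shared with other classes. *Cd34* stood at 507 CPM in endothelial cells and 621 in fibroblasts, a ratio of 0.816 (0.750 to 0.886). *Kdr*, VEGF receptor 2, stood at 911 CPM in endothelial cells and 119 in mesothelial cells, and *Podxl*, a sialomucin of the cell surface, at 350.4 and 246. *Pecam1* was also present in immune cells, at 177 CPM, as was the sphingosine phosphate receptor gene *S1pr1*, at 267 against 354 in endothelial cells. *Tek* stood at 285 CPM in endothelial cells and 98.0 in fibroblasts, a ratio of 2.91 (2.58 to 3.27).

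**Figure D1:**
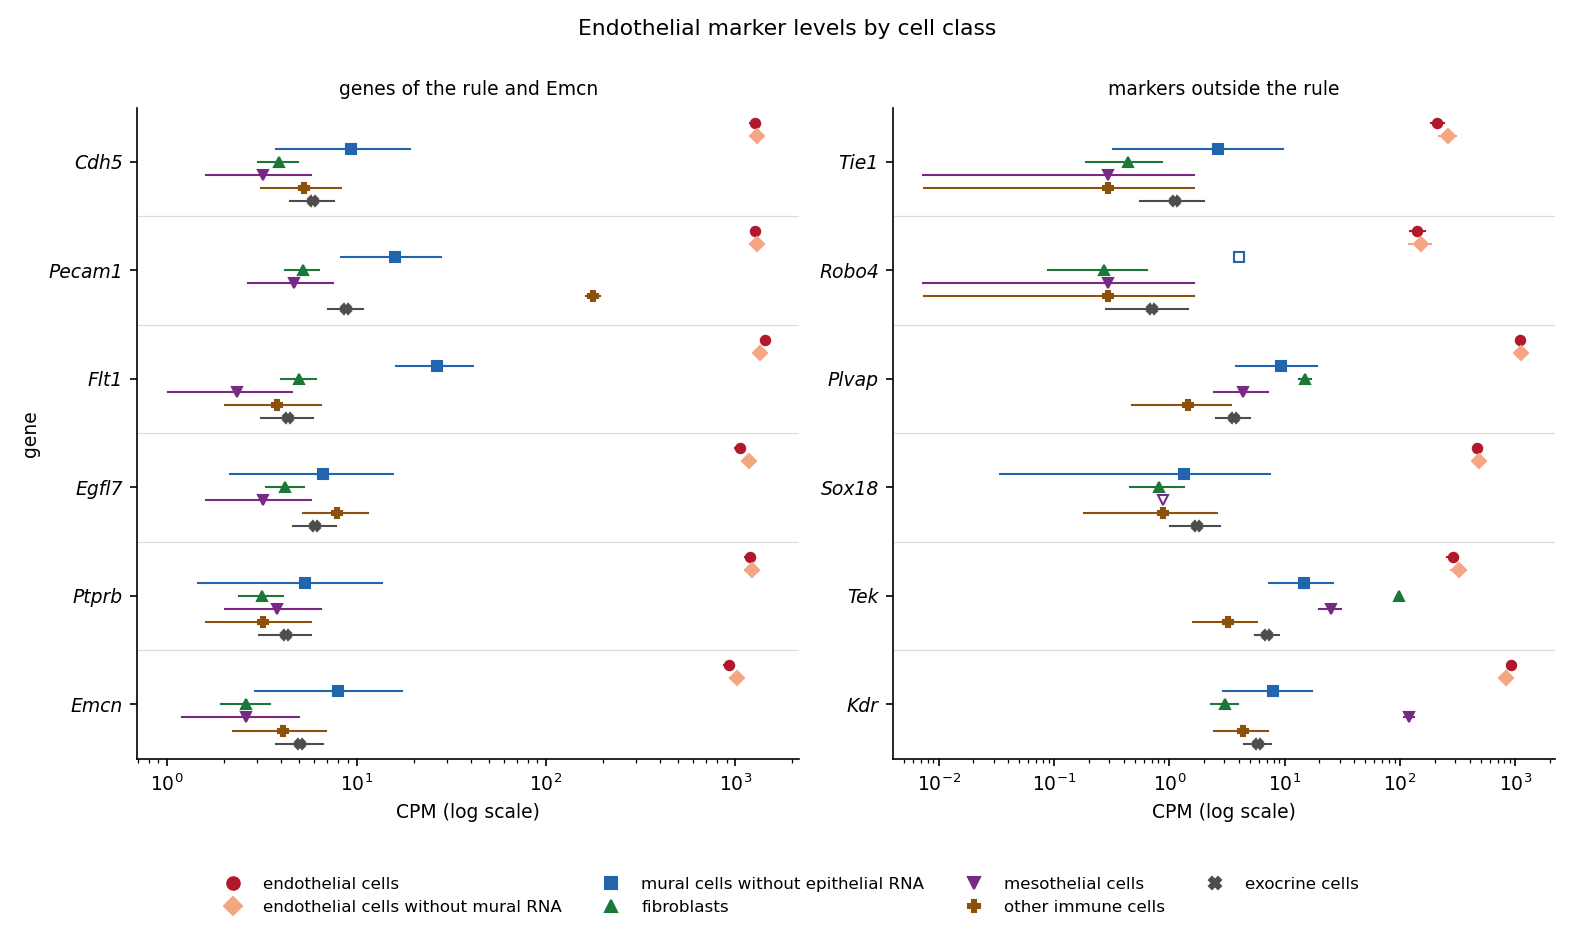
Levels in CPM on log scales of the genes of the rule with *Emcn* (left) and of 6 markers outside the rule (right) by cell class; bars are 95% Poisson intervals and open symbols mark a class with 0 UMIs, drawn at the level of 3 UMIs. Both sets of endothelial cells sit to the right of every other class for all 12 genes, with *Pecam1* in immune cells at 177 CPM, *Kdr* in mesothelial cells at 119 CPM and *Tek* in fibroblasts at 98.0 CPM the nearest.

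RNA of mural cells, the pericytes and smooth muscle cells that wrap vessels, was present in many of the 216 cells. The rule capped the contractile genes *Acta2* and *Myh11* but not the pericyte genes, and 86 cells held 5 or more UMIs summed over *Rgs5*, *Kcnj8*, *Higd1b*, *Notch3*, *Cspg4* and *Myh11*, whereas 96 held none and 34 held 1 to 4. *Rgs5*, a pericyte regulator of G-protein signalling, stood at 2180 CPM (2065 to 2300) in the 86 cells, 95.6 in the other 130 and 19.6 in fibroblasts. *Rgs5* and *Notch3* are among the 6 genes that divided the 86 cells from the 130, so their levels in these groups are a description of the division. No fibroblast held more than 4 UMIs of the 6 genes, so the level of *Rgs5* there was limited in the same way. Mural cells served as a further comparison. The class held 184 barcodes, of which 13 also carried 5 or more UMIs of the epithelial genes *Epcam*, *Cdh1*, *Krt8*, *Krt18* and *Sox9*, and the 171 without them are used below unless stated. In these 171 cells *Rgs5* stood at 1398 CPM. *Notch3* and *Pdgfrb*, receptors of pericytes, stood at 340.4 and 298 CPM in the 86 cells, at 12.4 and 21.3 in the 130, and at 746 and 349.7 in mural cells. Over the 9 genes of the mural list, all of which had UMIs, the summed level was 3257 CPM in the 86 cells, 253 in the 130 and 12593 in mural cells, where *Acta2* alone made up 5024. The 86 cells were deeper, with a median of 4700 UMIs against 2714, and the 31 cells with 20 or more mural UMIs had a median of 11436. Scrublet, a doublet caller, marked 2 of the 86 and 2 of the 130. Both *Xist* and a Y-linked gene were read in 7 of the 86 (8.14%, 3.34 to 16.0%) and 5 of the 130 (3.85%, 1.26 to 8.75%), and in 50 of the 251 barcodes with 5 or more marker UMIs that the purity criteria left out (19.9%). The part of these UMIs in the levels below was not tested. Values are given for all 216 cells and, where printed, for the 130 without mural RNA. The 130 include all 9 cells described below as lymphatic-like, which held 142687 of the 564620 UMIs of the 130 and of the 1181505 of the 216. The 130 and the 216 therefore differ in the share of these cells as well as in mural RNA.

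**Figure D2:**
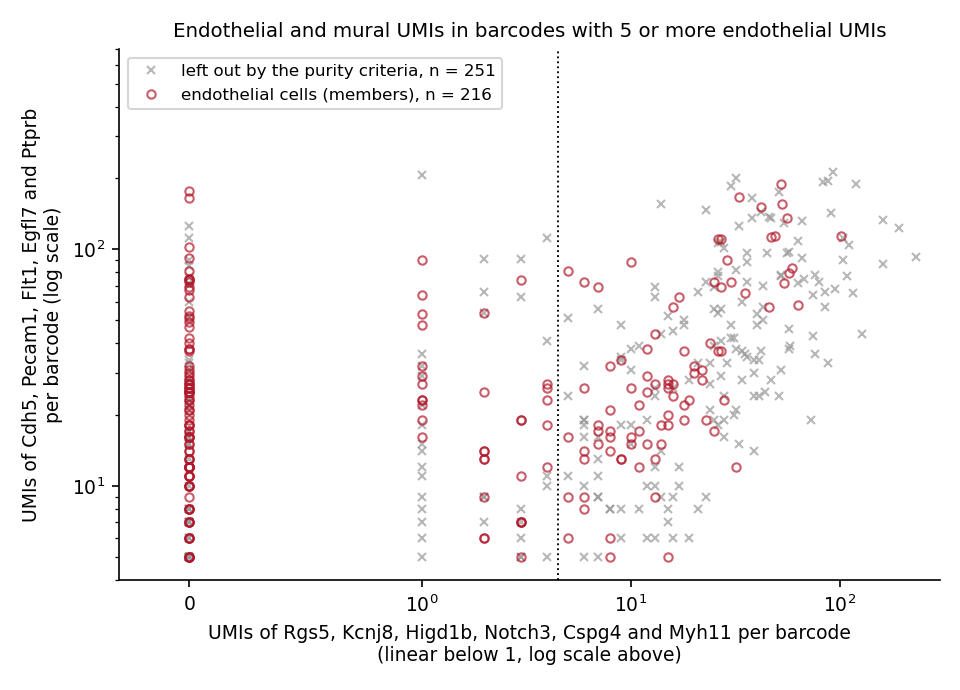
UMIs of the 5 endothelial genes of the rule (log scale) against UMIs of 6 mural genes (linear below 1, log scale above) in the 467 barcodes with 5 or more endothelial UMIs; each symbol is 1 barcode and the dotted line separates 0 to 4 from 5 or more mural UMIs. Circles are the 216 endothelial cells, 86 of them to the right of the line, and crosses are the 251 barcodes left out by the purity criteria.

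Of other cell types, most defining genes were low. *Ptprc* (by the rule), *C1qa* and *Lyz2* had 0 UMIs, the 6 immune genes summed to 32 UMIs (27.1 CPM), and 22 of these were of the B cell gene *Cd79a*, read in 9 cells (18.6 CPM, and 31.9 in the 130 cells). The 6 epithelial genes summed to 20.3 CPM. The 7 fibroblast genes summed to 1487 CPM in the 216 cells (921 in the 130, 2005 in the 86) against 54940 in fibroblasts. *Col3a1* was the most abundant at 769. The rule capped *Col1a1* and *Col3a1*, so the low sum was in part set by the choice of cells. Digestive enzyme RNA was present in each of these classes: the 8 enzyme genes summed to 4778 CPM in endothelial cells, 5488 in fibroblasts and 5209 in mural cells. *Ctrb1* (chymotrypsinogen) had a UMI in 96.8% of endothelial cells and 95.8% of fibroblasts. The rule capped *Ctrb1*, *Pnliprp1*, *Clps* and *Reg1*, so the endothelial sum was in part set by the choice of cells. No background level was measured apart from these cells, and the source of the enzyme RNA was not tested. The 5 genes of red blood cells summed to 5303 CPM in endothelial cells, 4306 in fibroblasts and 2275 in mural cells, and their part in the results was not tested.

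Genes were next ranked by their level in endothelial cells over that in all other kept barcodes, with 10 CPM added to both, among genes present in at least 10% of the cells. The other barcodes include the 251 with endothelial RNA that the purity criteria left out, which lowers these ratios. The first was *Pcdh17*, a protocadherin, at 1041 against 34.0 CPM, followed by *Egfl7*, *Gpihbp1*, *Plvap*, *Emcn*, *Rbp7*, *Flt1*, *Cdh5*, *Fabp4* and *Adgrl4*. *Dysf* (dysferlin, a membrane repair protein), *Cd93*, *Cyyr1*, *Ctla2a*, *Sox18*, *Rgcc*, *Cd36*, *Cdh13*, *Apold1*, *Aplnr*, *Shank3* and *Rasgrp3* were also among the first 25. Of 18395 genes with at least 10 UMIs over both groups, 340 (1.85%) were at least 4-fold higher in endothelial cells and 311 (1.69%) at least 4-fold lower. Of the 21 markers outside the rule 20 were in the higher group, all but *Cd34*. The rule used this contrast, and the counts are given as a description. Between the 130 endothelial cells without mural RNA and the mural cells, 3.85% of 10588 genes were at least 4-fold higher and 4.68% at least 4-fold lower, and 19 of the 21 markers were higher, all but *Esam* and *Cd34*. When all 184 mural barcodes were kept, the shares were 2.86% and 4.25% of 11942 genes, and all 21 markers were higher. The 184 barcodes held 65 UMIs of the 5 genes of the rule, and both groups were set by marker counts. The counts between endothelial and mural cells are therefore also a description.

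Transcription factor genes of the endothelial program were among the raised genes. Of 23 such genes, 15 were at least 4-fold higher than in the other barcodes and none was lower, beside 1.85% and 1.69% of all genes, with a median log2 ratio of 2.23 against 0.04 over all genes. *Sox18*, a SOX factor of vessel and lymphatic development, stood at 466 CPM against 0.819 in fibroblasts and 1.33 in mural cells. *Erg*, an ETS factor that keeps endothelial identity, stood at 249 CPM against 1.09 and 3.99. The ETS genes *Fli1* and *Ets1* were shared with immune cells, at 545 and 709 CPM in endothelial cells and 331 and 654 in immune cells. *Mef2c* and *Epas1*, which encodes the hypoxia-responsive factor HIF-2α, were shared with mural cells, at 969.9 and 549 CPM in endothelial cells and 1070 and 325 in mural cells. *Klf2* and *Klf4*, known as flow-responsive genes, were not particular to the endothelium: they stood at 947 and 609 CPM against 1296 and 1159 in fibroblasts. *Tcf15* and *Meox2*, partners in heart endothelium that raise fatty acid uptake genes, stood at 81.3 and 49.9 CPM, and *Meox2* reached 54.2 CPM in fibroblasts. *Foxf1* stood at 34.7 CPM (24.9 to 47.1) against 1.75 in fibroblasts.

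Several receptors and ligands of the VEGF family differed in level between cell classes. The receptors *Flt1*, *Kdr* and *Flt4* and the co-receptor *Nrp2* were at least 4-fold higher in endothelial cells than in the other barcodes, 4 of 10 genes of the family beside 1.85% of all genes. *Flt1* is a gene of the rule, so its place among them was set by the choice of cells. The co-receptor *Nrp1* did not reach 4-fold and stood at 211 CPM in fibroblasts and 282 in mural cells. *Flt1* stood at 1434 CPM. *Kdr* was 167-fold above its level in the 184 mural barcodes (81.0 to 417) and 114-fold above that in the 171. The ratio was 59.0 (38.4 to 95.8) where 10 or more marker UMIs were required, with *Kdr* at 928 CPM in the endothelial cells. The mural class was set by marker counts, so the size of these ratios depends in part on its choice. *Vegfa*, the ligand of the receptors encoded by *Flt1* and *Kdr*, stood at 8.46 CPM in endothelial cells (4.06 to 15.6), 10 UMIs in all. It stood at 89.7 CPM in fibroblasts, 45.2 in mural cells and 47.2 in exocrine cells. *Vegfd* was at 4.23 CPM against 173 in fibroblasts, and was the 1 gene of the family at least 4-fold lower than in the other barcodes. *Vegfc*, the lymphatic growth factor, stood at 99.9 CPM against 45.7 in fibroblasts. Of 7 angiopoietin genes, 3 were at least 4-fold higher than in the other barcodes, beside 1.85% of all genes. They were the receptors *Tek* and *Tie1* and, by the rule, the phosphatase *Ptprb*, which dampens Tie2. Neither *Angpt1* nor *Angpt2* passed 4-fold in that comparison. The agonist *Angpt1* stood at 14.4 CPM (3.54 in the 130 cells) against 106 in mural cells. *Angpt2*, the context-dependent antagonist, was at 33.0 CPM in endothelial cells and 49.2 in mural cells. *Svep1*, which encodes a matrix protein, was at 11.9 CPM against 319.8 in fibroblasts. Of the apelin system, ligand and receptor were both higher in the endothelium. *Apln* stood at 158 CPM (126 in the 130 cells) and *Aplnr* at 354, against 7.43 and 4.31 in fibroblasts.

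**Figure D3:**
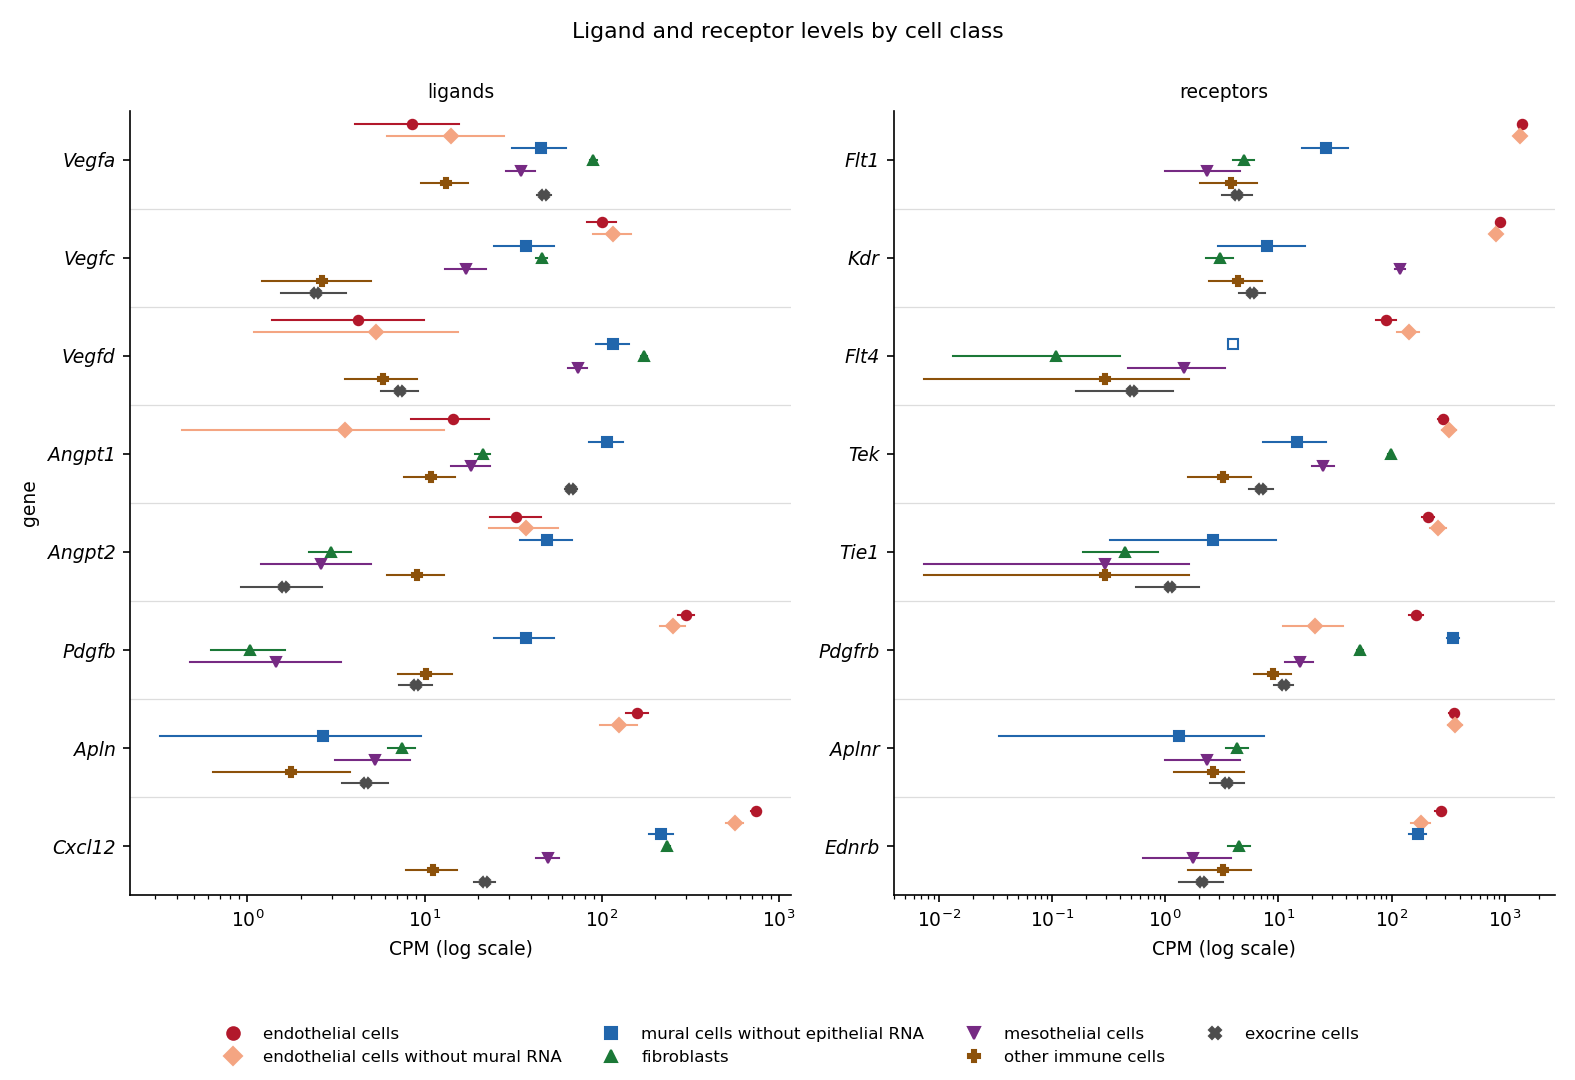
Levels in CPM on log scales of 8 ligand genes (left) and 8 receptor genes (right) by cell class; bars are 95% Poisson intervals, and open symbols mark classes with 0 UMIs, drawn at the level of 3 UMIs. *Vegfa*, *Vegfd* and *Angpt1* lie lower in endothelial cells than in mural cells, while *Pdgfb*, *Apln* and *Cxcl12* lie higher, and *Pdgfrb* separates the 130 endothelial cells without mural RNA (21.3 CPM) from all 216 (166 CPM).

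*Pdgfb*, through which endothelial cells recruit pericytes, stood at 299 CPM (268 to 332; 252 in the 130 cells), 13.7-fold above the 184 mural barcodes (9.34 to 21.0) and 8.02-fold above the 171. Under the upper limit of 10000 UMIs the ratio to mural barcodes was 6.77 (4.49 to 10.6). Its receptor gene *Pdgfrb* stood at 349.7 CPM in mural cells and 21.3 in the 130 endothelial cells. Among 13 Notch genes, *Dll4*, *Jag2*, *Notch1*, *Notch4* and *Hey1* were at least 4-fold higher than in the other barcodes, 5 of 13 beside 1.85% of all genes. In the 130 cells over mural cells, *Dll1*, *Dll4*, *Jag2* and *Notch4* were higher, 4 of 13 beside 3.85% of all genes. *Jag1*, *Notch3*, *Hey2* and *Heyl* were lower there, 4 of 13 beside 4.68%, and *Notch1* and *Hey1* did not pass 4-fold. *Dll4*, the ligand that restrains sprouting, stood at 89.7 CPM and *Jag2* at 76.2, against 2.66 each in mural cells, whereas *Jag1* was higher in mural cells, at 281 against 71.9 CPM. *Notch1* and *Notch4* stood at 296 and 61.8 CPM. *Notch3* and *Heyl* stood at 12.4 and 3.54 CPM in the 130 endothelial cells against 746 and 188 in mural cells. The 130 cells were chosen for few UMIs of *Notch3* among other genes, so its low level there was set by the choice. In all 216 cells *Notch3* stood at 184 CPM. The arterial ephrin *Efnb2* and its venous receptor *Ephb4* stood at 355 and 114 CPM, and *Efnb2* at 423 in the 130 cells. Vasoactive genes were also split: *Edn1* (endothelin-1), *Ece1*, its converting enzyme, and *Nos3*, which makes nitric oxide, stood at 81.3, 287 and 70.3 CPM against 5.32, 25.3 and 3.99 in mural cells. The endothelin receptor *Ednra* and the nitric oxide sensor subunit *Gucy1a1* stood at 1.77 and 19.5 CPM in the 130 endothelial cells and at 230.1 and 382 in mural cells. Both groups were chosen by their UMIs of mural genes. The gaps between them in *Ednra*, *Gucy1a1*, *Heyl* and *Pdgfrb* were therefore in part set by the choice. *Ednrb*, the second endothelin receptor, was present in both, at 181 and 172 CPM. Of BMP and TGF-beta genes, *Eng* and *Acvrl1*, receptors mutated in hereditary hemorrhagic telangiectasia, stood at 766 and 129 CPM against 77.1 and 21.3 in mural cells. Among sphingosine phosphate genes, the exporter *Spns2* stood at 90.6 CPM, and no UMI of it was present in mural cells.

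Genes of fatty acid uptake reached some of the highest ratios. Of 18 genes of lipid and lipoprotein handling, *Gpihbp1*, *Cd36*, *Fabp4*, *Rbp7*, *Scarb1* and *Tcf15* were at least 4-fold higher and *Lpl* at least 4-fold lower than in the other barcodes, 6 and 1 of 18 beside 1.85% and 1.69% of all genes. *Gpihbp1*, which carries lipoprotein lipase across the endothelium to the capillary lumen, stood at 444 CPM (407 to 484), 678-fold above fibroblasts (385 to 1321). Without the purity criteria *Gpihbp1* stood at 229.6 CPM. *Lpl*, the lipase it binds, had the opposite distribution, at 75.3 CPM in endothelial cells (35.4 in the 130) against 1599 in fibroblasts, a ratio of 0.0471 (0.0378 to 0.0580). *Fabp4*, a cytosolic fatty acid binding protein, stood at 3719 CPM (3610 to 3831), 121-fold above fibroblasts (110.4 to 132), and was present in 183 of 216 cells. *Cd36*, the fatty acid translocase, stood at 766 CPM and was exceeded by the 17 macrophages, at 1146 CPM (920.4 to 1410). *Rbp7*, a retinol binding protein, stood at 821 CPM against 9.31 in mural cells. *Scarb1*, the HDL receptor, stood at 375 CPM, 34.5-fold above fibroblasts (29.1 to 41.0). *Fabp5* was not particular to the endothelium, at 379 CPM against 649 in mesothelial cells.

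No gene of the SCAP and SREBP pathway, 22 tested, was 4-fold higher or lower than in the other barcodes, and the median log2 ratio was -0.35, where 1.85% and 1.69% of all genes were higher and lower, so that a count of 0 is near the background. Between the 130 cells and the mural cells 2 of 21 genes of the list that could be tested were higher, *Abca1* and *Abcg1*, beside 3.85% of all genes. *Scap* itself (ENSMUSG00000032485, GRCm38 chromosome 9, 110333288 to 110384950, forward strand) stood at 56.7 CPM (44.0 to 72.0; 62.0 in the 130 cells) against 26.0 in fibroblasts (23.7 to 28.4) and 24.6 in exocrine cells. Its ratio to fibroblasts was 2.18 (1.66 to 2.82), and 2.38 (1.64 to 3.36) in the 130 cells. *Srebf2*, the sterol-responsive SREBP, went the other way, at 27.1 CPM against 55.2 in fibroblasts, a ratio of 0.491 (0.334 to 0.698), but it stood at 46.2 CPM (39.9 to 53.2) without the purity criteria. *Srebf1* stood at 14.4 CPM against 26.0. Of genes that make fatty acids, *Fasn* stood at 9.31 CPM against 40.8 (ratio 0.228, 0.113 to 0.411), *Scd1* at 4.23 against 43.3 (ratio 0.0977, 0.0317 to 0.229) and *Acaca* at 34.7 against 56.5. Of cholesterol synthesis genes, *Sqle* stood at 5.93 CPM against 22.6 and *Hmgcs1* at 43.2 against 74.3. The cholesterol exporters *Abca1* and *Abcg1* stood higher than in fibroblasts, *Abca1* at 274 CPM against 112 and *Abcg1* at 66.0 against 2.79, ratios of 2.45 (2.17 to 2.75) and 23.7 (16.5 to 34.4). *Acacb*, the mitochondrial acetyl-CoA carboxylase that limits fatty acid oxidation, stood at 24.5 CPM against 2.35 in fibroblasts and 32.3 in exocrine cells. The counts behind these levels were small, 67 UMIs of *Scap* and 32 of *Srebf2*, and an effect of the floxed allele itself on *Scap* RNA was not tested.

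**Figure D4:**
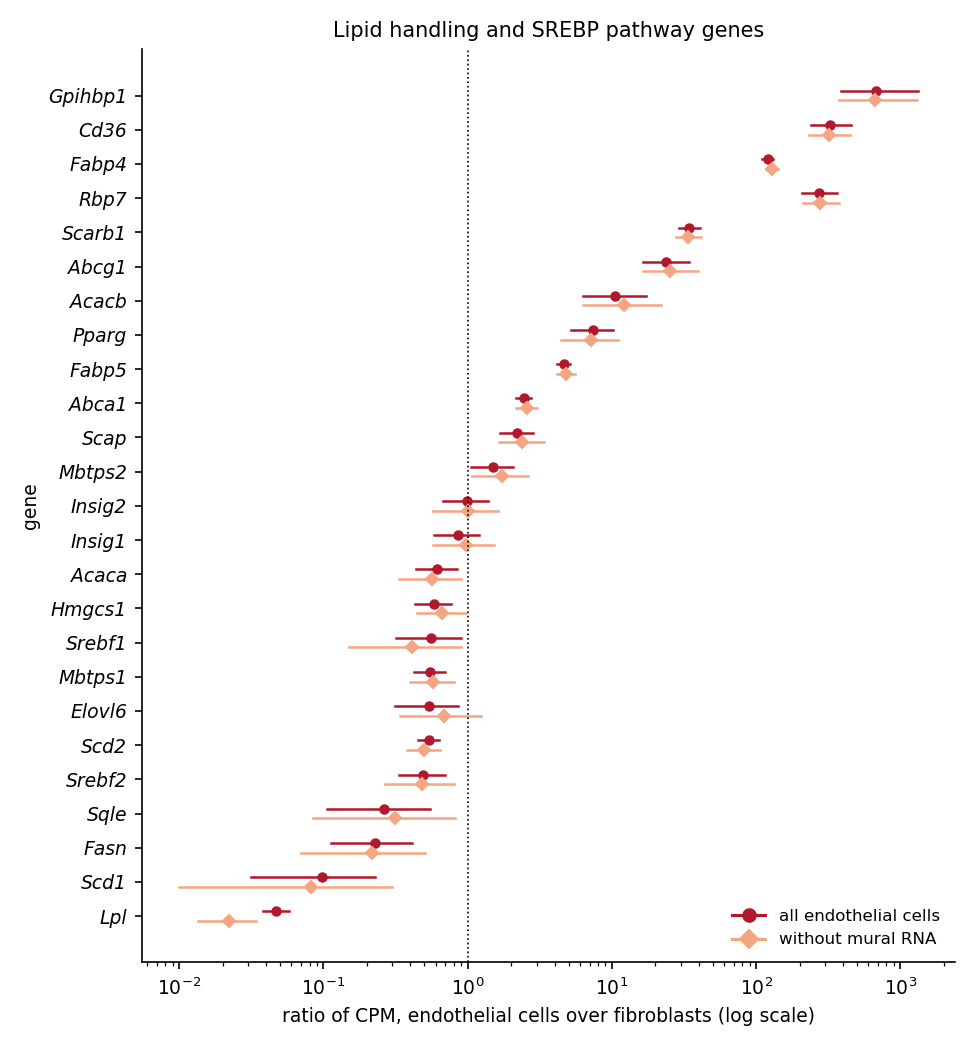
Ratio of CPM in endothelial cells to CPM in fibroblasts (log scale) for 25 genes of lipid handling and the SREBP pathway, in all 216 cells (circles) and in the 130 without mural RNA (diamonds); bars are exact 95% intervals and the dotted line marks equal levels. *Gpihbp1* lies at 678, *Scap* at 2.18, *Srebf2* at 0.491 and *Lpl* at 0.0471.

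Of 17 genes of junctions, fenestrae and caveolae 13 were at least 4-fold higher than in the other barcodes, beside 1.85% of all genes, with *Cdh5* and *Pecam1* among the 13 by the rule. *Cldn5*, the tight junction claudin of endothelium, was uneven: it stood at 228 CPM but had a UMI in 52 of 216 cells, and 189 of its 269 UMIs came from 9 cells described below as lymphatic-like. *Cav1* and *Cavin1*, which shape caveolae, stood at 1051 and 479.9 CPM and were higher in mesothelial cells, at 1801 and 1059. The basement membrane collagen genes *Col4a1* and *Col4a2* stood at 4159 and 2099 CPM in all 216 cells, 2967 and 1557 in the 130, 832 and 464 in fibroblasts, and 1480 and 799 in mural cells. Of 15 basement membrane and matrix genes 3 were at least 4-fold higher than in the other barcodes, beside 1.85% of all genes. In the 130 cells over mural cells the count was 0 of 15, near the 3.85% of all genes. *Nid1* and *Sparc* were lower than in fibroblasts, at 391 and 3162 CPM against 1356 and 6100. Of 12 coagulation genes 3 were higher, *Vwf*, *Mmrn1* and *Mmrn2*, beside 1.85% of all genes, and the von Willebrand factor gene *Vwf* had a UMI in 45 cells, at 80.4 CPM (120.4 in the 130 cells). Of the 94 UMIs of *Mmrn1*, 92 came from 8 of the 9 lymphatic-like cells. Among genes of leukocyte adhesion, *Selp* (P-selectin) and *Madcam1*, the mucosal addressin, stood at 138 and 78.7 CPM against 0.273 and 0.0546 in fibroblasts, and *Selp* at 234 in the 130 cells. The chemokine *Cxcl12* stood at 741 CPM (565 in the 130 cells) against 235 in fibroblasts. Of 12 MHC genes none passed 4-fold in either direction against the other barcodes, while between the 130 cells and mural cells 5 were higher, or 3 with all 184 mural barcodes (*H2-D1*, *H2-Q7* and *Cd74*), beside 3.85% and 2.86% of all genes. *H2-D1* stood at 328 CPM in the 130 cells, 43.9 in the 171 mural cells and 66.8 in the 184.

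Of 13 imprinted growth genes, 8 were at least 4-fold lower than in the other barcodes (*Igf2*, *H19*, *Peg3*, *Dlk1*, *Plagl1*, *Cdkn1c*, *Meg3* and *Ndn*) and none was higher, beside 1.69% and 1.85% of all genes, with a median log2 ratio of -2.06 against 0.04 over all genes. *Igf2* stood at 91.4 CPM against 1947 in fibroblasts, a ratio of 0.0470 (0.0385 to 0.0567), and *H19* at 151 against 4408. In immune cells *Igf2* stood at 37.7 CPM and *H19* at 75.4. The 13 genes summed to 2911 CPM in endothelial cells, 14848 in fibroblasts, 1256 in exocrine cells and 799 in immune cells. *Gnas*, which encodes a stimulatory G-protein subunit, made up most of the endothelial sum, at 1793 CPM (1717 to 1871) against 1352 in fibroblasts and 411 in immune cells. *Grb10* did not follow, at 299.6 CPM in endothelial cells and 417 in fibroblasts. The 16 immediate early genes summed to 18499 CPM in endothelial cells, 19148 in fibroblasts, 4820 in immune cells and 5001 in exocrine cells, and *Fos* stood at 5298 CPM in endothelial cells and 4602 in fibroblasts. None of these 16 genes and none of 16 cell cycle genes passed 4-fold against the other barcodes, beside 1.85% and 1.69% of all genes. At 800 UMIs per cell, 13.9% of endothelial cells (9.57 to 19.2%) and 6.43% of fibroblasts (5.79 to 7.12%) held 1 or more UMIs of 8 of these cell cycle genes. The share was 11.5% (6.60 to 18.3%) in the 130 cells without mural RNA and 12.3% in mural cells. In exocrine, immune and mesothelial cells it was 14.7%, 13.1% and 11.3%. Each group was thinned in its own random draw, so the numbers of cells in its parts need not add up. Without thinning the shares with 1 or more of these UMIs were 30.1% in endothelial cells, 14.4% in fibroblasts and 46.6% in exocrine cells. Those with 3 or more were 12.5%, 4.63% and 20.8%. No cycling was read from them.

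Clustering the 216 cells gave 6 clusters, whose genes are described without a test because the same genes made the clusters. A name was given where at least 3 listed markers of a vessel type were at least 2-fold above the other cells, a threshold set after the clusters had been seen. A cluster was left unnamed where over 50% of its cells carried mural RNA or where its 10 leading genes held more markers of another type. The first cluster, of 53 cells, stayed unnamed. It led with *Esm1* at 684 CPM, and *Esm1* and *Nid2*, listed as genes of tip cells, were both among its first 10, with the capillary gene *Rgcc*. *Rgcc*, *Gpihbp1* and *Rbp7* reached 1696, 919.6 and 1553 CPM. The hemoglobin genes *Hba-a1* and *Hba-a2* were also among its first 10. A cluster of 42 venous-like cells held *Selp* at 666 CPM against 9.47 in the other cells, *Vwf* at 307 and *Sele* at 90.9, and *Aplnr* stood at 770.3. *Selp* had a UMI in 42.9% of its cells, *Vwf* in 59.5% and *Sele* in 23.8%. Of the listed venous markers 4 were raised, *Selp*, *Sele*, *Vwf* and *Vcam1*, while *Ackr1*, *Ephb4*, *Lrg1*, *Flrt2* and *Il1r1* were not. *Nr2f2*, the regulator of venous identity, did not reach 2-fold there: it stood at 515 CPM, against 1037 in the lymphatic-like cells described below, 370 and 332 in the clusters of 45 and 48 cells, and 55.9 in the first. A cluster of 19 arterial-like cells held the gap junction genes *Gja5* and *Gja4* at 127 and 544 CPM, *Sema3g* at 236, *Efnb2* at 1196, *Cxcl12* at 3517 and *Vegfc* at 689, with *Nr2f2* at 18.1. *Aplnr* and *Apln* were at 0 of its 55162 UMIs.

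The last cluster was 9 lymphatic-like cells. *Prox1*, the master regulator of lymphatic fate, stood at 1668 CPM and had a UMI in all 9. *Lyve1* stood at 1311, *Reln* at 519, *Mmrn1* at 645 and *Flt4* at 379 CPM, and *Nts* (neurotensin) at 890.1. *Ccl21a* reached 4562 CPM, but the gene belongs to a family of near-identical copies and its level is uncertain. *Lyve1* had a UMI in 44.4% of the 9 cells, *Reln*, *Nts* and *Ccl21a* in 66.7% each and *Mmrn1* in 88.9%. Of the general endothelial genes, *Cdh5* stood at 708 CPM and *Cldn5* at 1325, while *Emcn*, *Flt1*, *Plvap* and *Fabp4* stood at 91.1, 28.0, 217 and 322. These cells were deep, with a median of 9894 UMIs and 1 cell of 49438 among 142687 in all, and none held 5 or more mural UMIs.

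The remaining clusters overlapped with mural RNA. Both were left unnamed. A cluster of 48 cells, 33 of them with mural RNA, was led by cell cycle genes, with *Top2a* at 242 CPM and in 43.8% of its cells and *Mki67* at 114 CPM and in 35.4%. In a cluster of 45 cells 35 carried mural RNA (*Rgs5* at 2673, *Notch3* at 515 and *Ndufa4l2* at 319 CPM). It also held 7 arterial genes raised, *Hey1* at 207 and *Gja4* at 437 CPM among them, and *Cxcl12* stood at 2084 CPM. The part of the mural RNA in these groupings was not tested. Over the other limits and clusterings tried, the lymphatic-like cells numbered 5 to 9, while the venous-like cells numbered 0 to 46 and the arterial-like 0 to 51. A capillary-like cluster was named in 1 setting, with 53 cells at 3 or more marker UMIs, and a cluster was named by the cell cycle list in 4, with 17 to 26 cells. Without the cells bearing mural RNA there were 29 arterial-like and 9 lymphatic-like cells, no venous-like cluster, and 92 cells in unnamed clusters. *Scap* lay between 42.1 and 90.6 CPM in the 6 clusters.

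**Figure D5:**
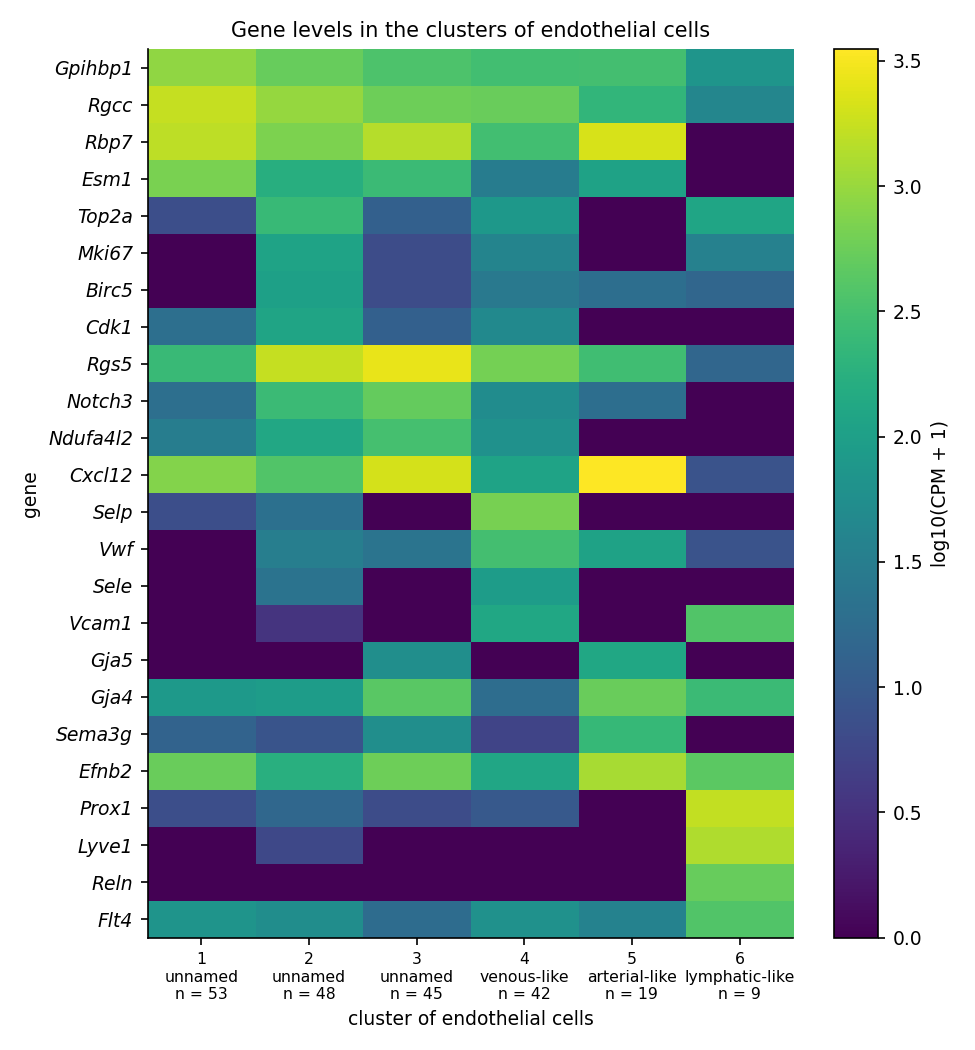
Colour shows the level of 24 genes as log10(CPM + 1) in the 6 clusters of endothelial cells, with the name, where one was given, and number of cells of each under its column. *Prox1*, *Lyve1* and *Reln* are bright in the 9 lymphatic-like cells, *Selp* in the 42 venous-like cells and *Gja5* and *Sema3g* in the 19 arterial-like cells, while *Rgs5* and *Notch3* are brightest in the unnamed clusters of 45 and 48 cells.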

How the data were processed

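Single cells of pooled Scap f/f pancreata were captured with 10x Genomics 3′ chemistry, and per the submitters' processing notes the authors aligned the reads to mm10 with Cell Ranger 7.1.0. The deposited values are raw UMI counts of 32285 genes in 11789 barcodes, 51540177 UMIs in all. By default this version also counts intronic reads, so levels were compared within a gene between cells. The study's upper limit of 10000 UMIs was an alternative here. Counts were summed per cell class and given as CPM with exact Poisson 95% intervals, ratios with conditional exact intervals and shares with exact binomial intervals. Other classes were set by marker counts, each with fewer than 5 UMIs of the 5 genes of the rule. For counts of genes past 4-fold, 10 CPM was added and at least 10 UMIs were required. Cells were thinned to 800 UMIs where shares were compared. Clusters came from scanpy 1.11.5 (1500 variable genes, 20 components, 15 neighbours, Leiden resolution 0.8). Scrublet marked doublets at an expected rate of 0.08 and none were removed. Calculations ran in Python 3.11.15 and were tested on simulated data. Genes named were the 25 largest ratios, the 5 genes with the most UMIs (*Malat1*, *Actb*, *Tmsb4x*, *Fos* and *Rps29*), the 10 leading genes of each cluster in part and members of 31 gene lists. The members and lists were chosen with earlier results of these data known. Alternatives were other depth, marker and mitochondrial limits, doublet removal, subtraction of the whole-library profile and other clusterings. Leaving out cells with mural RNA or mural barcodes with epithelial RNA was added after seeing the data. A few genes of these lists are not reported here.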

Additional observations from a re-analysis of the deposited data

Results flagged for a closer look

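Endothelial RNA was also found in barcodes that were not counted as endothelial cells. Among kept barcodes, 251 with 5 or more UMIs of the 5 endothelial genes were left out by the purity criteria. Of these, 147 failed on *Acta2* and *Myh11*, 64 on the collagen genes, 52 on *Ptprc* and 36 on the digestive enzymes, and 46 failed on more than 1 criterion. They held *Emcn* at 467 CPM and *Rgs5* at 1533 CPM, their median depth was 7265 UMIs against 3594 in the endothelial cells, and Scrublet marked 42 of them (16.7%). Below the depth limit, 9 of 752 barcodes passed all other criteria, with *Emcn* at 479 CPM from 3 UMIs (98.8 to 1401), and 1 barcode over the mitochondrial limit passed them too. The part of each in the composition of the tissue was not tested.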

How the results depend on the processing

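No paired analysis was possible because the results come from 1 library and no test. Of 198 alternative levels of 18 genes over 11 settings, 141 stayed within the counting interval and 57 moved, and none of the 5 ratios recomputed changed direction. The number of endothelial cells was 130 (1.19% of kept barcodes) without cells bearing mural RNA and 467 (4.27%) without the 4 purity criteria, and the share was 1.67% at 10 or more marker UMIs. *Emcn* stood at 981 CPM under the limit of 10000 UMIs, 799.8 at 3 or more marker UMIs, 1018 without mural RNA and 596 without the purity criteria. *Kdr* stood at 780.1, 788, 832 and 619 CPM under these 4 settings and at 788 as a mean over cells. *Plvap* stood at 958 CPM at 3 or more marker UMIs and 676 without the purity criteria. *Gpihbp1* stood at 541 CPM under 10000 UMIs, 384.5 at 3 or more marker UMIs, 229.6 without the purity criteria and 531.5 as a mean over cells. *Fabp4* stood at 4989, 3242, 3974 and 2641 CPM under the 4 settings given for *Emcn*. It stood at 4569 as a mean over cells and 3900 with the whole-library profile subtracted. The ratio of *Kdr* to mural cells was 59.0 at 10 or more marker UMIs. The ratio of *Pdgfb* to mural cells was 6.77 under 10000 UMIs and 8.02 without the mural barcodes bearing epithelial RNA, and that of *Emcn* was 39.1 at 10 or more marker UMIs against 148. Without the purity criteria *Srebf2* stood at 46.2 and *Selp* at 89.6 CPM. The cause of these shifts was not tested. The 32 cells over 10000 UMIs held 46.5% of the UMIs, so pooled levels follow them. At resolution 0.4 no capillary-, venous- or arterial-like cluster was named.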
